A study of Mus musculus with 9 samples.

Results

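Lymphocyte receptors such as the T cell receptor (TCR) and the activating receptors of natural killer (NK) cells have short tails inside the cell and signal through small partner chains. The genes described here are the adaptors of NK receptors (*Fcer1g*, *Tyrobp* and *Hcst*), the signalling chains of the TCR (*Cd247*, *Cd3e*, *Cd3d* and *Cd3g*) and the kinase *Syk*. They were chosen by name, as adaptors of either receptor class together with *Syk*, and with earlier results of these data known. All 8 were found among the 21883 genes of the table. RNA was sequenced from thymic invariant natural killer T (iNKT) cells, T cells with a nearly fixed TCR that bind lipid loaded on CD1d. There were 3 libraries each of wild-type (WT) stage 2, WT stage 3 and *Med23*-deficient (KO) stage 2 cells, sorted by flow cytometry among CD24low, CD1d tetramer-positive cells as CD44high and either NK1.1low (stage 2) or NK1.1 positive (stage 3). All mice were of the C57BL/6 strain, WT mice were 6 weeks old, and the age of the KO mice is not given in the labels. KO mice carried *Med23* fl/fl alleles and the *Cd4*-*Cre* transgene, which removes this subunit of the Mediator complex in all thymocytes that have expressed *Cd4*, iNKT precursors and conventional T cells alike.

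The comparisons address how the signalling chains stand at the stage before and after NK1.1 is gained, and whether *Med23* loss shifts them within stage 2. Levels are FPKM, in which a gene's fragments are divided by its transcript length and by the mapped fragments of the library, so genes of different length can be set side by side. In bulk RNA, fewer cells with a transcript and less of it per cell cannot be told apart. The table holds no read counts, so the depth behind a value is unknown; 15584 to 17333 genes per library were above 0, and the non-coding gene model *Gm23935* took 62.2 to 71.9% of the summed FPKM. All 7 iNKT markers looked at were present in every library, among them *Zbtb16*, which encodes the transcription factor PLZF. The *Med23* level was 5.51, 5.15 and 6.74 in WT stage 2 and 4.80, 3.60 and 3.92 in KO stage 2 libraries. The KO values lay below the WT stage 2 values but not near 0. The log2 change of -0.41 did not pass the test (limma adjusted p = 0.552). In WT stage 3 the *Med23* level was 7.14, 4.44 and 6.12, which overlapped the KO values. A gene-level value includes RNA outside the deleted part, so it is a weak check of the deletion.

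Most of these chains carry an immunoreceptor tyrosine-based activation motif (ITAM), a pair of tyrosines that Src family kinases phosphorylate when the receptor is engaged. The phosphorylated pair is then bound by the tandem SH2 domains of ZAP70, the usual ITAM kinase of T cells, or of SYK, the kinase more used by B cells and myeloid cells. FcRγ (*Fcer1g*) and DAP12 (*Tyrobp*) are ITAM adaptors of Fc receptors and activating NK receptors, and FcRγ also pairs with NK1.1. DAP10 (*Hcst*), which pairs with NKG2D, has no ITAM and recruits PI3 kinase through a YxNM motif instead. CD3ζ (*Cd247*), CD3ε, CD3δ and CD3γ are the chains of the TCR complex, and CD3ζ can also serve natural cytotoxicity receptors in NK cells.

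The ITAM is held by *Fcer1g*, *Tyrobp* and all the TCR chains, but not by *Hcst* and *Syk*. The coding stretches of the ITAMs and of the YxNM motif are printed here, 5′ to 3′ on the coding strand, from GENCODE vM21 transcripts of mm10. An ITAM was searched as a tyrosine codon, 2 codons, a leucine or isoleucine codon, 6 to 8 codons, and the same tyrosine and leucine or isoleucine pattern again. Capitals mark the tyrosine and the leucine or isoleucine codons, and for *Hcst* the tyrosine, asparagine and methionine codons.
*Fcer1g*, codons 65 to 79, exons 4 and 5, minus strand of chr1:171229889-171230072: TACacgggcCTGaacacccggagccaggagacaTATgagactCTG
*Tyrobp*, codons 92 to 106, exons 4 and 5, plus strand of chr7:30415670-30417382: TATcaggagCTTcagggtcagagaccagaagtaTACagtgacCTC
*Hcst*, codons 72 to 75, exon 4, minus strand of chr7:30417821-30417832: TACatcAACATG
*Cd247*, first ITAM, codons 72 to 86, exons 3 and 4, plus strand of chr1:165856451-165857454: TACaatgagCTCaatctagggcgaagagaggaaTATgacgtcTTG
*Cd247*, second ITAM, codons 111 to 126, exons 5 and 6, plus strand of chr1:165858473-165859260: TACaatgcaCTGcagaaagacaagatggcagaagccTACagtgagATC
*Cd247*, last ITAM, codons 142 to 156, exons 7 and 8, plus strand of chr1:165859819-165861042: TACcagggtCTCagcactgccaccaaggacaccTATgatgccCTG
*Cd3e*, codons 170 to 184, exons 7 and 8, minus strand of chr9:44999549-45000440: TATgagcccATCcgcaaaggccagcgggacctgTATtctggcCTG
*Cd3d*, codons 149 to 163, exons 4 and 5, plus strand of chr9:44986095-44986311: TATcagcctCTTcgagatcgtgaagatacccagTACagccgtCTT
*Cd3g*, codons 160 to 174, exons 5 and 6, minus strand of chr9:44970735-44971268: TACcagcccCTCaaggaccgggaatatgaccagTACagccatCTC

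*Cd247* held 3 ITAMs in 164 codons, and each of the other ITAM chains held 1. Only 4 of the 21562 genes searched, or 0.0186%, held 3 or more such patterns, against 2.85% with at least 1. The YxNM codons occurred in 1.3% of the genes searched, and among the 8 genes only in *Hcst*. *Syk* itself held neither pattern in its 629 codons. All 8 ITAM stretches ran across an exon boundary, which is why their genomic spans exceed the bases printed.

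The genes also fall into close pairs on the genome. *Tyrobp* (chr7:30413760-30417585, plus strand) and *Hcst* (chr7:30417712-30419854, minus strand) have their 3′ ends facing each other, 126 bases apart. *Cd3g* (chr9:44969572-44980431, minus strand) and *Cd3d* (chr9:44981786-44987339, plus strand) have their 5′ ends facing each other, 1354 bases apart, and *Cd3e* (chr9:44998740-45009627, minus strand) lies 11400 bases past the 3′ end of *Cd3d*. *Fcer1g* (chr1:171229572-171234365, minus strand), *Cd247* (chr1:165788681-165877277, plus strand) and *Syk* (chr13:52583173-52648792, plus strand) stand apart from the others. The 3′ part of *Cd247* overlaps *Pou2f1* on the opposite strand, with 3007 exonic bases in common. The sources used here do not state whether strand was used in quantification, so reads there may belong to either gene. In the 250 bases before the RefSeq start on GRCm38.p6, found for 7 of the 8 genes (not *Tyrobp*) as 8 windows, with 2 for *Syk*, none of TGANTCA (AP-1), TGTGGT (RUNX) and GGTGTGA (T-box) occurred on either strand. These letters occur in 6.75%, 14% and 3.33% of all 32851 promoters, so finding none in 8 windows is a description of these windows only.

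In WT stage 2 cells the TCR chains led by a wide margin. *Cd3g* averaged 190 ± 16.7 FPKM, *Cd3e* 124 ± 8.43 and *Cd3d* 83.7 ± 14.9 (SD, n = 3 for these and all later values of this form), and the libraries of these 3 genes did not overlap. *Cd247* (29.3 ± 1.40) and *Hcst* (26.3 ± 2.63) followed with overlapping libraries, while *Fcer1g*, *Syk* and *Tyrobp* were near or at 0. In WT stage 3 cells the order of the 3 CD3 chains was the same, but *Hcst* (37.2 ± 7.98) and *Fcer1g* (36.9 ± 5.65), whose libraries overlapped, stood above *Cd247* (16.0 ± 3.54). In KO stage 2 cells the order was that of WT stage 2. By rank of the group mean among all 21883 genes, *Fcer1g* was at 12967 in WT stage 2, 922 in WT stage 3 and 9010 in KO stage 2, whereas *Cd3g* held ranks 148, 141 and 119.

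**Figure D1:**
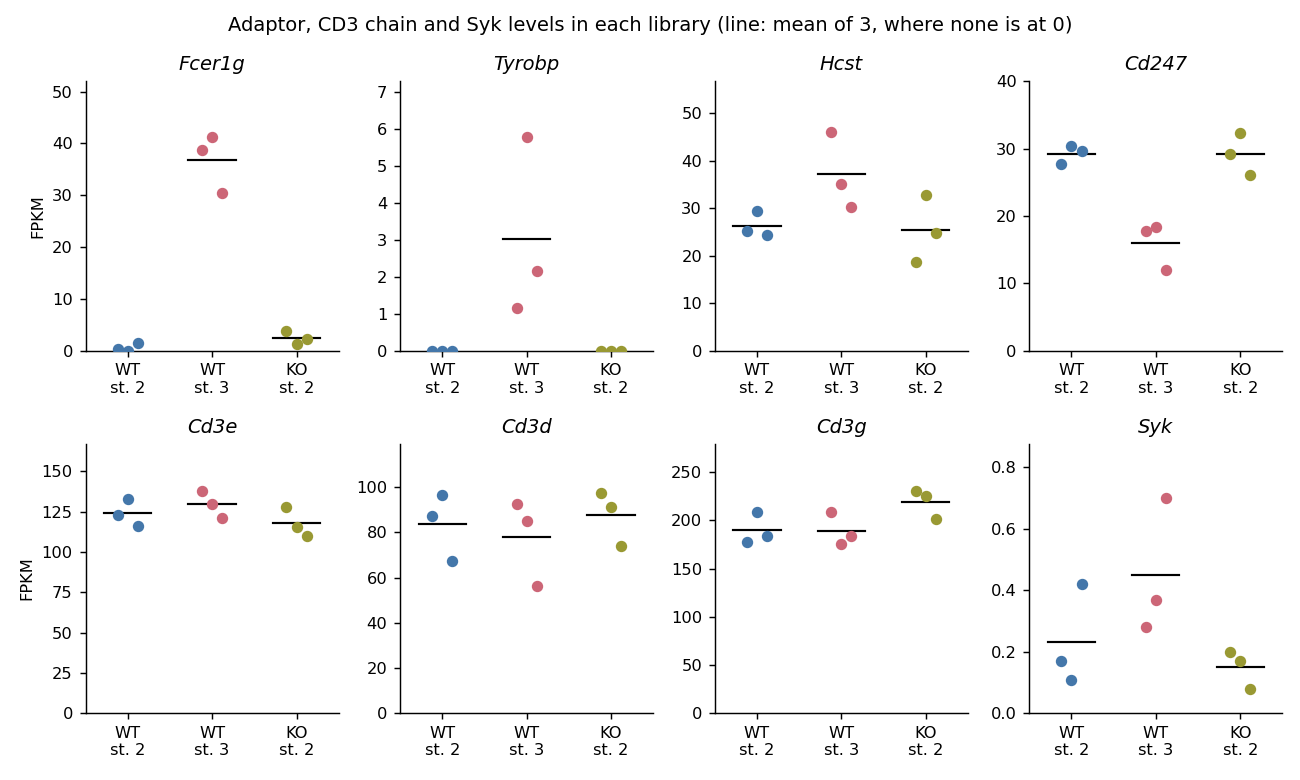
Each panel plots 1 gene in FPKM, with a point per library and a line at the mean of the 3 libraries of a group unless a library of that group is at 0; axes start at 0 and differ between panels. *Fcer1g*, *Tyrobp* and *Hcst* lie higher and *Cd247* lower in every WT stage 3 library than in every WT stage 2 library, while *Cd3e*, *Cd3d*, *Cd3g* and *Syk* overlap.

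Between WT stages, the 3 NK-type adaptors were the genes with higher values in every WT stage 3 library, and *Cd247* was the gene with lower ones. With limma on log2(FPKM + 1), adjusted over all 20689 genes tested, 1 of the 8 genes passed an adjusted p of 0.05 (*Fcer1g*), where 1.67% of all genes tested passed. The thresholds of the study (unadjusted p of 0.05 or less together with a fold of 2 or more) passed 2 (*Fcer1g* and *Tyrobp*) against 3.6% of all genes. For 4 of the 8 genes the groups did not overlap, against 17.8% of all genes (7.36% higher and 10.4% lower). The median log2 fold change of the 8 genes was 0.15, against -0.01 over all genes tested. Nothing in the labels says whether replicates came from separate mice, so these p-values measure only the spread between these libraries.

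*Fcer1g*, the FcRγ chain, had FPKM of 0.30, 0 and 1.48 in the stage 2 libraries of WT mice and of 38.78, 41.29 and 30.50 in those of stage 3. Every WT stage 3 library was more than an order of magnitude above every WT stage 2 library. The change of log2(FPKM + 1) was 4.67 ± 0.35 (SE), with a limma adjusted p of 0.00843. Leaving out each library in turn kept the change between 4.39 and 5.04, but the adjusted p passed 0.05 without replicate 2 (0.0513) and replicate 3 (0.0577) of WT stage 3.

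*Tyrobp*, which encodes DAP12, had an FPKM of 0 throughout WT stage 2. In WT stage 3 it was found at 1.15, 5.78 and 2.14 FPKM, a low level with a wide spread. With WT stage 2 at 0 throughout no fold is given. The limma adjusted p was 0.122, and it was 0.0399 with a pseudocount of 0.1, 0.0317 with a pseudocount of 0.01 and 0.0369 with all 9 libraries in the fit. The other 13 of 16 alternatives did not pass, with 0.093 to 0.268 when a library was left out and 0.577 in the Ballgown-style model. With the pseudocount of 0.01 *Tyrobp* passed and *Fcer1g* did not (adjusted p = 0.0648). DAP12 is abundant in myeloid and NK cells, so their markers were read beside it. Of 10 myeloid markers 3 were matched (*Lyz2*, *Csf1r* and *Cd68*). Their summed FPKM was 0.49 to 0.90 in WT stage 2 and 0.10, 2.33 and 1.05 in WT stage 3 replicates 1 to 3. Within WT stage 3 the replicate with the most *Tyrobp* also had the most of them. In KO stage 2 replicates 1 to 3 the sum was 0.63, 2.23 and 1.87, with *Tyrobp* at 0 throughout. Of 5 NK cell markers 2 were matched, and *Eomes*, a defining factor of conventional NK cells, was at 0 in every WT stage 3 library while the integrin gene *Itga2* was at 1.08, 3.25 and 2.57. Mast cell and basophil markers, cells that are rich in FcRγ, were not matched in the table. The part of other cells in the *Tyrobp* and *Fcer1g* values was not tested.

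*Hcst*, which encodes DAP10, was already expressed at stage 2, with 25.16, 29.31 and 24.43 FPKM, and stood at 45.94, 35.16 and 30.35 in WT stage 3. The groups did not overlap, though the lowest WT stage 3 and the highest WT stage 2 library lay close together. The log2 change of 0.47 ± 0.17 (SE) did not pass the test (limma adjusted p = 0.302). Within WT stage 3, *Fcer1g* relative to *Hcst* ranged from 0.844 to 1.17, so these adaptors of different motif were at like levels in each library.

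*Cd247*, the CD3ζ chain with its 3 ITAMs, had FPKM of 27.74, 30.48 and 29.59 in WT stage 2 and of 17.78, 18.37 and 11.97 in WT stage 3. Every WT stage 3 library was below every WT stage 2 library. The log2 change was -0.85 ± 0.17 (SE), and the limma adjusted p was 0.085. It was 0.0456 when genes were held to a mean FPKM of at least 1 and 0.0336 with all 9 libraries in the fit. The other 14 of 16 alternatives did not pass, with 0.111 to 0.212 when a library was left out and 0.606 in the Ballgown-style model. *Pou2f1*, which shares exonic bases with *Cd247* on the other strand, was at 1.68, 2.24 and 3.93 in WT stage 2 and 1.55, 2.29 and 2.84 in WT stage 3, where its groups overlapped.

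The CD3 chains proper differed by less than the spread between libraries. *Cd3e*, needed for assembly of every TCR complex, was at 122.89, 132.92 and 116.16 FPKM in WT stage 2 and 137.75, 129.46 and 121.00 in WT stage 3, a log2 change of 0.06 ± 0.09 (SE; limma adjusted p = 0.79). *Cd3d* was at 87.24, 96.55 and 67.32 against 92.52, 84.79 and 56.09, a change of -0.12 ± 0.23 (adjusted p = 0.831). *Cd3g* was at 177.53, 209.19 and 184.23 against 208.58, 175.96 and 183.79, a change of -0.01 ± 0.11 (adjusted p = 0.982). The groups overlapped for all 3, and the sign of each change turned under at least 1 other setting. Relative to *Cd3e* in the same library, *Cd247* went from 0.226, 0.229 and 0.255 in WT stage 2 to 0.129, 0.142 and 0.0989 in WT stage 3, without overlap, while the ratios of *Cd3d* and *Cd3g* to *Cd3e* overlapped.

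*Syk* stayed near the bottom of the scale in every library, at 0.17, 0.11 and 0.42 FPKM in WT stage 2 and 0.28, 0.37 and 0.70 in WT stage 3. Its log2 change was 0.23 ± 0.16 (SE; limma adjusted p = 0.627). *Zap70*, the other kinase of this family, was at 67.5 ± 1.75 and 66.4 ± 2.18 in these groups, a change of -0.02 ± 0.07 (adjusted p = 0.903). *Syk* made up no more than 1.06% of *Syk* and *Zap70* together in any of the 9 libraries.

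The balance of the adaptors was read within each library, where it does not depend on how libraries are scaled to each other. The NK-type sum (*Fcer1g*, *Tyrobp* and *Hcst*) was 25.46, 29.31 and 25.91 FPKM in WT stage 2 and 85.87, 82.23 and 62.99 in WT stage 3. The TCR-type sum (*Cd247*, *Cd3e*, *Cd3d* and *Cd3g*) was 415.4, 469.14 and 397.3 against 456.63, 408.58 and 372.85, and overlapped. The NK-type adaptors thus went from 5.78, 5.88 and 6.12% of all 7 chains to 15.8, 16.8 and 14.5%, and the TCR chains remained the larger part in every library. The log2 ratio of the sums went from a mean of -3.99 to -2.43, a difference of 1.56, with no overlap. As a score over chosen genes it is given without a test, and leaving out any library kept the difference between 1.50 and 1.63.

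The ITAM adaptors made up most of that shift. *Fcer1g* and *Tyrobp* together were at 0 to 1.48 FPKM in WT stage 2 and at 32.64 to 47.07 in WT stage 3. Set against *Cd247* alone, *Fcer1g* made up 1.07, 0 and 4.76% of the pair in WT stage 2 and 68.6, 69.2 and 71.8% in WT stage 3. The pair therefore changed order between the stages in every library, with *Fcer1g* higher and *Cd247* lower in WT stage 3. *Tyrobp* made up 2.44, 14.1 and 6.59% of *Tyrobp* and *Hcst* in WT stage 3, so DAP10 transcripts outnumbered those of DAP12 throughout. The summed *Cd3e*, *Cd3d* and *Cd3g* level was 387.66, 438.66 and 367.71 in WT stage 2 and 438.85, 390.21 and 360.88 in WT stage 3, and overlapped.

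**Figure D2:**
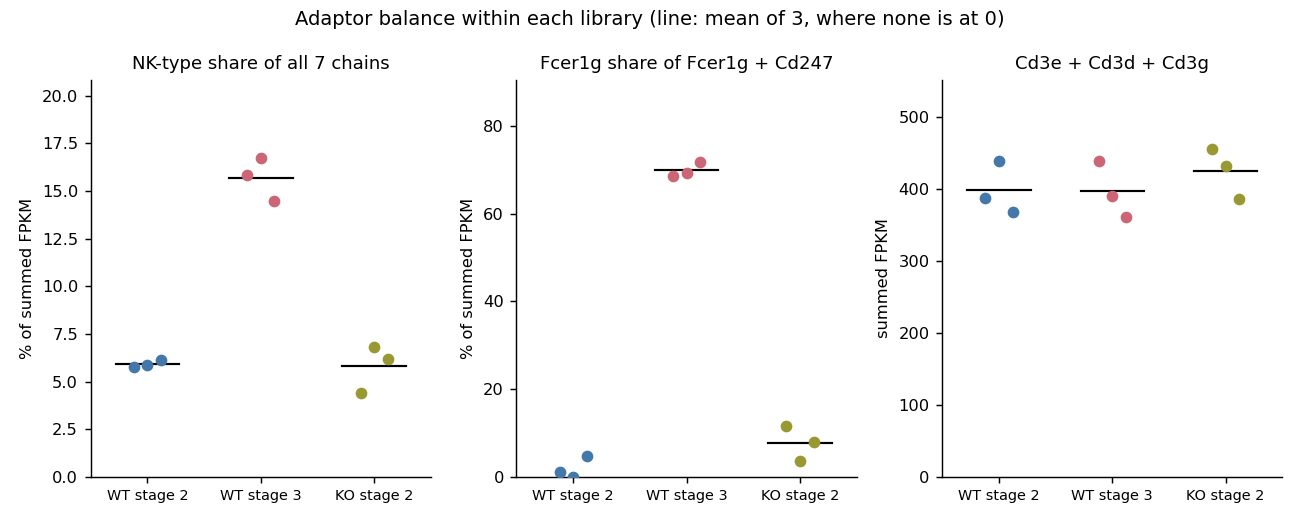
Each point is 1 library and each line the mean of 3, where none is at 0; the left panel gives the share of *Fcer1g*, *Tyrobp* and *Hcst* in the summed FPKM of the 7 adaptor and CD3 chains, the middle panel the share of *Fcer1g* in *Fcer1g* and *Cd247*, and the right panel the summed FPKM of *Cd3e*, *Cd3d* and *Cd3g*. The WT stage 3 shares (14.5 to 16.8% and 68.6 to 71.8%) lie above those of both stage 2 groups, while the CD3 sums overlap in all 3 groups.

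In *Med23*-deficient stage 2 cells, *Tyrobp* was at 0 as in WT stage 2, the libraries overlapped those of WT stage 2 for the other 7 genes, and *Fcer1g* alone was past a 2-fold change. None of the 7 genes tested passed an adjusted p of 0.05 in limma, where 0.213% of the 20674 genes tested passed. By an unadjusted p of at most 0.05, 1 passed, against 9.58% of all genes. The Ballgown-style model called 0 of them but only 1 of all genes, so it could hardly have called any here. By the fold and p thresholds 1 passed (*Fcer1g*) against 2.11% of all genes. Among all genes 14% did not overlap between these groups. The median log2 fold change was -0.01 for these genes and for all genes tested. This comparison shares its WT stage 2 libraries with the comparison of stages. Of the markers of other cells, *Ighm* was at 104.14, 90.36 and 85.59 FPKM in the KO libraries against 31.19, 49.70 and 40.64 in WT stage 2, while the B cell genes *Cd79a* and *Cd79b* were at 0 in all KO libraries. *Itga2* was at 4.22, 4.01 and 4.92 against 1.23, 1.50 and 0.90, and the summed myeloid markers were at 0.63 to 2.23 against 0.49 to 0.90. The TCR γ constant genes also set the KO libraries apart from the WT libraries of both stages: *Tcrg-C1*, *Tcrg-C2* and *Tcrg-C4* reached at most 5.47 FPKM in any KO library and were at 40.17 or more in every WT library. The part of these differences in the KO values below was not tested, and whether the KO libraries differ from WT in more than *Med23* cannot be told from the labels.

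*Fcer1g* was at 3.80, 1.24 and 2.23 FPKM in the KO libraries, against 0.30, 0 and 1.48 in WT stage 2, so KO replicate 2 lay below WT stage 2 replicate 3. The log2 change was 1.14 ± 0.45 (SE; limma adjusted p = 0.499). The fold and p thresholds were no longer met without WT stage 2 replicate 1, WT stage 2 replicate 2, KO replicate 1 or KO replicate 3. The KO level stayed well below the 30.50 to 41.29 of WT stage 3, a contrast of genotype and stage together that was not tested. *Tyrobp* was listed at 0 in all KO libraries and could not be tested. *Hcst* was at 18.57, 32.75 and 24.88, with a log2 change of -0.08 ± 0.21 (adjusted p = 0.909).

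*Cd247* was at 29.22, 32.36 and 26.05 FPKM in the KO libraries, on both sides of the WT stage 2 values, and its log2 change was -0.01 ± 0.10 (SE; limma adjusted p = 0.982). *Cd3e* was at 127.50, 115.33 and 110.13 and *Cd3d* at 97.23, 91.14 and 74.15, with adjusted p of 0.785 and 0.902. *Cd3g*, the most abundant of the 8 genes, was at 230.26, 225.59 and 201.56, and its change of 0.20 ± 0.10 did not pass the test (adjusted p = 0.607). Within each library, however, *Cd3g* relative to *Cd3e* was 1.81, 1.96 and 1.83 in KO and 1.44, 1.57 and 1.59 in WT stage 2, without overlap. WT stage 3 stood with WT stage 2 in this ratio, at 1.51, 1.36 and 1.52. The ratio was not tested, and it was singled out after its values were seen.

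*Syk* was at 0.20, 0.17 and 0.08 FPKM in the KO libraries (log2 change -0.09 ± 0.11, SE; limma adjusted p = 0.781). *Zap70* was at 77.3 ± 5.48, above every WT stage 2 library, with a change of 0.19 ± 0.08 that did not pass (adjusted p = 0.537). The NK-type adaptors made up 4.42, 6.82 and 6.18% of the 7 chains in KO libraries, which overlapped WT stage 2. *Fcer1g* made up 11.5, 3.69 and 7.89% of *Fcer1g* and *Cd247*. The log2 ratio of NK-type to TCR-type sums averaged -4.04, a difference from WT stage 2 of -0.06 that took both signs when libraries were left out in turn (-0.19 to 0.14).

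**Figure D3:**
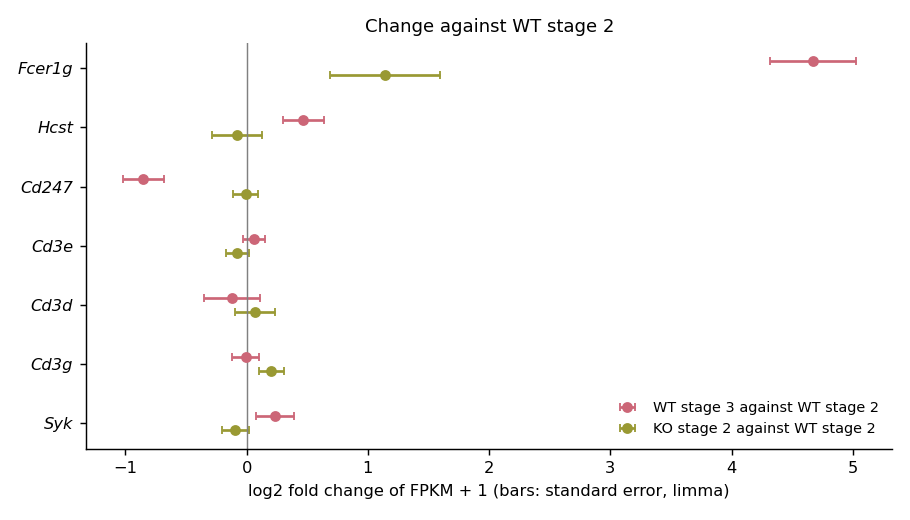
Points give the log2 fold change of FPKM + 1 against WT stage 2 and bars its standard error from limma, with 3 libraries per group; *Tyrobp* is left out because it was at 0 in both stage 2 groups. For WT stage 3, *Fcer1g* (4.67) and *Cd247* (-0.85) lie farthest from 0 in opposite directions, and for KO stage 2 the gene farthest from 0 after *Fcer1g* (1.14) is *Cd3g* (0.20).

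The receptors that signal through these adaptors were read as a list of 10 NK receptor genes, of which 8 were matched and tested (not *Klra4* and *Ncr1*). *Klrb1c* encodes NK1.1, by which the stages were sorted, so it is left out of the counts, a choice made after seeing the data. This list and those below were chosen with earlier results of these data known, so their counts beside all genes are a description only. Of the other 7 genes, 5 rose and none fell between WT stages by adjusted p in limma, and 6 were above the WT stage 2 libraries without overlap, against 0.759% and 7.36% of all genes for these rules. Their median log2 change was 2.23, against -0.01 for all genes tested. *Klrk1*, which encodes NKG2D, the receptor of DAP10, rose by 3.37 (adjusted p = 0.00665) from 1.11, 1.56 and 1.69 FPKM to 17.46, 28.68 and 28.44. *Klrc2*, which encodes the DAP12 partner NKG2C, rose by 3.40 (adjusted p = 0.0118) and *Klrd1*, the CD94 chain that pairs with it, by 2.95 (adjusted p = 0.023). *Fcgr3*, an Fc receptor that needs FcRγ, rose by 1.93 (adjusted p = 0.023) from 0.09, 0 and 0 to 2.51, 3.86 and 2.53. *Klrb1f*, of the NKR-P1 family, rose by 2.23 (adjusted p = 0.042) from 0.21, 0 and 0.97 to 4.12, 6.01 and 5.82.

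The level of *Klrb1c* is a check of the sort and not a result. Its FPKM was 16.34, 26.24 and 7.65 in WT stage 2 and 95.09, 57.27 and 72.66 in WT stage 3. *Klra8* and other *Klra* genes have near-identical copies that can share reads, so its level is uncertain. The number of receptor genes past the adjusted p was at most 3 when any 1 library was left out, and 0 without WT stage 3 replicate 3. The Ballgown-style model called 0 of them, and only 5 of all genes.

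In KO stage 2 cells none of the 7 receptor genes passed the adjusted p in limma. The Ballgown-style model called 0 of them, and only 1 of all genes. By an unadjusted p of at most 0.05, 4 passed (9.58% of all genes did). All 4 were lower in every KO than in every WT stage 2 library, where 8.37% of all genes were so. *Klrd1* was at 2.72, 1.08 and 0.61 against 4.66, 11.04 and 12.76 FPKM (adjusted p = 0.204), and *Klrk1* at 0, 0.46 and 0.33 against 1.11, 1.56 and 1.69 (adjusted p = 0.211). *Klrc2* was at 0, 0.02 and 0 (adjusted p = 0.0998), and *Klrb1a* was at 0 throughout. *Klrb1c* was at 4.60, 2.61 and 3.04 (adjusted p = 0.21). The median log2 change of the 7 receptor genes was -0.76. Over the 7 adaptor, CD3 and *Syk* genes tested it was -0.01. The only NK-type adaptors among those were *Fcer1g* (1.14) and *Hcst* (-0.08), neither past the adjusted p. *Fcer1g* was near 0 and *Tyrobp* at 0 in WT stage 2, so a fall in either could hardly be seen.

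**Figure D4:**
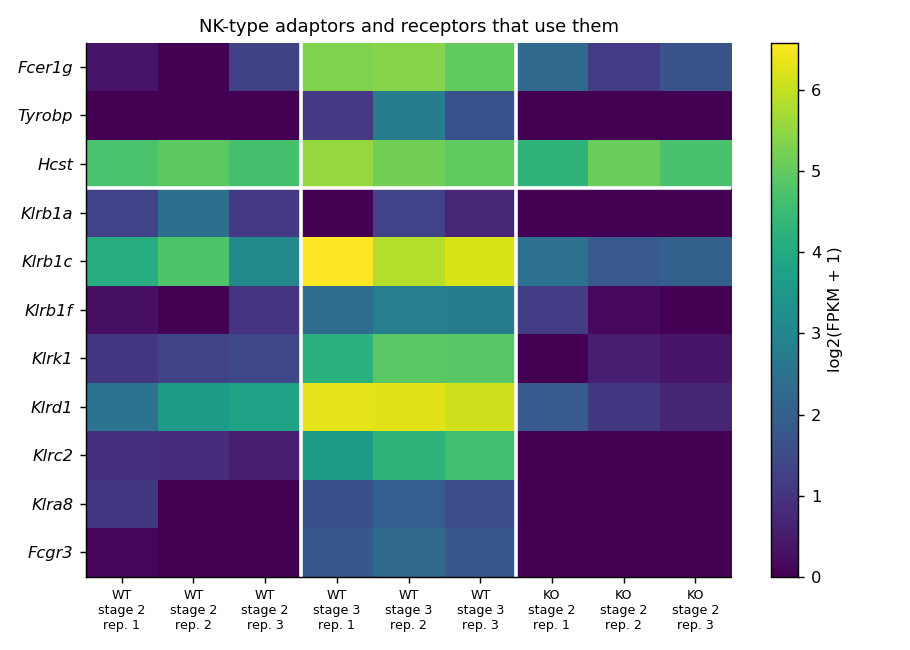
The colour gives log2(FPKM + 1) of the NK-type adaptors (top 3 rows) and of the 8 receptor genes tested (below) in each of the 9 libraries. *Fcer1g*, *Tyrobp* and 7 of the receptor genes are highest in WT stage 3, whereas *Hcst* is bright in all libraries and *Klrb1a* is not raised in WT stage 3.

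On the TCR side, 10 constant region and coreceptor genes were listed. Between WT stages 1 passed the adjusted p, where 0.914% of all genes fell by this rule. *Cd4* fell by 1.26 on the log2 scale (limma adjusted p = 0.0237), from 51.91, 49.01 and 51.78 to 17.17, 25.42 and 20.18 FPKM. CD4 also marks double-positive thymocytes, and of their other markers *Rag1*, *Cd8a*, *Dntt* and *Cd8b1* reached at most 1.58, 1.64, 1.83 and 3.05 FPKM in any library. In KO stage 2 cells 2 fell (0.145% of all genes did), *Tcrg-C2* (log2 change -6.28, adjusted p = 0.00333) and *Tcrg-C1* (-4.92, adjusted p = 0.0304), which are constant regions of the TCR γ chain. *Tcrg-C2* was at 133.77, 123.99 and 119.11 in WT stage 2, 137.73, 131.58 and 121.41 in WT stage 3, and 1.48, 0.23 and 0.41 in KO libraries. *Tcrg-C4* was at 67.26, 70.10 and 64.59 in WT stage 2 and at 0, 4.57 and 0.79 in KO libraries (-4.99, adjusted p = 0.055). The γ constant genes resemble each other and can share reads. *Trac*, the constant region of the α chain in these cells, was at 392.28, 364.97 and 329.99 in KO against 288.67, 288.74 and 264.67, above every WT stage 2 library but not past the test (adjusted p = 0.301). None of the CD3 chains, which serve both receptor types, passed the test in that comparison. The γ count was 0 without WT stage 2 replicate 2, and for *Cd4* the call held only without WT stage 3 replicate 2 among the fits with 1 library left out.

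Downstream of the motifs, 23 kinases and adaptors were listed and 21 tested between WT stages. The list had 1 gene past the adjusted p, where 1.67% of all genes passed: *Pik3cd*, a catalytic subunit of the PI3 kinase that YxNM motifs recruit. It rose by 0.58 ± 0.08 (SE, log2; limma adjusted p = 0.0295), from 48.22, 45.10 and 43.46 FPKM to 70.08, 69.21 and 66.75, and passed in no fit with 1 library left out. The list median was -0.01, that of all genes. In KO stage 2 cells 0 of 20 passed in limma (0.213% of all genes did), and 1 had an unadjusted p of at most 0.05 (9.58% of all genes did). The Ballgown-style model called 0 of the 20, and only 1 of all genes.

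Among 17 negative regulators of these pathways, 1 rose and 1 fell between WT stages, where 0.759% of all genes rose and 0.914% fell. *Ubash3a*, a phosphatase family member that dampens TCR signals, rose by 2.09 (limma adjusted p = 0.0118) from 3.22, 2.28 and 3.57 to 14.07, 16.23 and 17.64 FPKM. *Cd5*, an inhibitory coreceptor, fell by 1.10 on the log2 scale (adjusted p = 0.042), from 101.40, 71.31 and 94.37 to 47.00, 37.19 and 38.01. Neither passed when replicate 2 or replicate 3 of WT stage 3 was left out. In KO stage 2 cells no gene of the list passed in limma or in the Ballgown-style model, which called only 1 of all genes. By an unadjusted p of at most 0.05, 6 passed, against 9.58% of all genes. *Ubash3a* was at 12.11, 10.48 and 15.03 there (adjusted p = 0.0514), above every WT stage 2 library, and passed in 4 of 16 alternatives (a pseudocount of 0.1 or 0.01, a mean FPKM of at least 1, and all 9 libraries). Of the other ITAM genes, *Cd79a* and *Cd79b* of the B cell receptor never exceeded 0.5 FPKM. None passed in limma or by an unadjusted p of at most 0.05, which 13.2% of all genes had between WT stages. The Ballgown-style model called 0 of them, and only 5 of all genes between WT stages and 1 for KO.

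The genes most like each member over the 9 libraries were taken by Pearson's r of log2(FPKM + 1) among 6275 genes (6276 for *Tyrobp* and *Syk*), as a description in which the points share libraries and groups. *Fcer1g* was closest to *Crim1* (0.98), *Itga1* (0.96), an integrin chain, and *Irs2* (0.96). *Tyrobp* was closest to the NK receptor gene *Klre1* (0.93), and *Cd247* to *Vdr* (0.97), the vitamin D receptor gene. *Cd3e* and *Cd3d* had ribosomal protein genes first, *Rpl22l1* (0.96) and *Rpl21* (0.95). Among the 8 genes, *Fcer1g* ran with *Tyrobp* (0.87) and against *Cd247* (-0.87). *Cd3e* and *Cd3g* had an r of 0.08, but both varied little over the libraries, so this r says little of whether they are linked. The points fall into 3 groups, so genes that differ between the WT stages have a high r with each other through that difference alone.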

How the data were processed

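RNA from sorted thymic iNKT cells was measured in 9 libraries, 3 per group, with groups and replicate numbers taken from the labels. According to the study's methods and the submitters' processing notes, a strand-keeping kit for low amounts of total RNA was used, and reads were trimmed with Trimmomatic 0.36, aligned to mm10 with HISAT2 and quantified with StringTie on GENCODE vM12, from reads hitting a pair of loci at most. The authors deposited FPKM for 21883 genes, rounded to 2 decimals. Whether strand was used in counting is not given in the sources used here. FPKM keeps no read count, so the depth per library is unknown, counting intervals are not printed, and a listed 0 may be a failed estimate; groups with a 0 are given library by library.

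The logarithm to base 2 of FPKM plus a pseudocount of 1 entered limma 3.58.1 under R 4.3.3 (lmFit, then eBayes with trend), fitted to the 6 libraries of each comparison and the genes above 0 in at least 1 of them. P-values are two-sided and adjusted by Benjamini-Hochberg over all genes tested. Fold changes are on the log2(FPKM + 1) scale, which understates those of low genes. Groups were called non-overlapping when every library of one lay above every library of the other. The fit was run on data simulated from the WT stage 2 libraries alone, so that run says nothing of WT stage 3, KO or genes near 0. All 8 genes, list genes past an adjusted p of 0.05, *Zap70*, *Klrb1c*, *Med23* and the 3 genes most like each member (mean FPKM of at least 5 in some group, no Gm or Rik names) were eligible to be named; other genes were named after their values were seen. The members and lists were chosen with earlier results of these data known. Motifs and positions came from GENCODE vM21 on mm10 (principal transcripts) and RefSeq promoters. Python 3.11.15, numpy 2.4.6, pandas 2.3.3 and matplotlib 3.10.9 were used. Alternatives were other pseudocounts, a minimum mean FPKM, TPM and upper-quartile scales, no trend, an ordinary linear fit per gene with library size as covariate, as Ballgown does (Ballgown-style), all 9 libraries, a replicate block, and each library left out.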

Additional observations from a re-analysis of the deposited data

How the results depend on the processing

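The count of adaptor and CD3 genes past an adjusted p of 0.05 between WT stages was 1, and became 2 with a pseudocount of 0.1 (*Fcer1g* and *Tyrobp*), 2 with a mean FPKM of at least 1 (*Fcer1g* and *Cd247*), 3 with all 9 libraries (*Fcer1g*, *Tyrobp* and *Cd247*), 0 in the Ballgown-style model and 0 to 1 with a library left out (0 without WT stage 3 replicate 2 or replicate 3). For *Fcer1g* the log2 change stayed between 4.39 and 7.78 and the adjusted p between 0.000578 and 0.162 over the 16 alternatives, with 0.0648 for a pseudocount of 0.01, where the count stayed at 1 but the gene was *Tyrobp* (adjusted p = 0.0317). By fold and p, the count of 2 became 1 in the Ballgown-style model. In KO against WT stage 2 the count by adjusted p was 0 under every alternative run, and the count of 1 by fold and p became 0 with a pseudocount of 0.01, on the TPM scale with and without *Gm23935*, in the Ballgown-style model and 0 to 1 with a library left out. The cause of these moves was not tested.

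The replicate numbers were checked as pairs. Deviations of same-numbered libraries from their group means correlated at 0.0845, 0.031 and 0.161 for WT stages. For KO and WT stage 2 they correlated at 0.0346, 0.00429 and 0.144. Between WT stages every library correlated best with its own number, a hint from the data and not from the design. For KO, replicate 3 did so and replicates 1 and 2 did not. The labels give same-numbered libraries no link beyond the number, and whether they share a batch was not tested. With the replicate block 0 adaptor and CD3 genes passed the adjusted p between WT stages (*Fcer1g* adjusted p = 0.0786), and 19 of all genes did in place of 346; for KO the block left 0 of 44. The count of receptor genes called between WT stages was 1 with the block in place of 5.

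The log2 balance difference was 2.55 in place of 1.56 between WT stages, and 0.31 in place of -0.06 for KO, when geometric means of FPKM + 1 replaced sums, since *Fcer1g* and *Tyrobp* then weigh as much as *Hcst*. With a library left out it ranged from 1.50 to 1.63 and from -0.19 to 0.14. The balance without *Hcst* was not run because *Fcer1g* and *Tyrobp* were both at 0 in WT stage 2 replicate 2.

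Changes that turned sign were small and never called. Between WT stages these were *Cd3e* on the TPM scale (-0.0399), *Cd3d* with a library left out (-0.267 to 0.0964), and *Cd3g* at a common upper quartile (0.0798), in the Ballgown-style model (0.0531) and with a library left out (-0.0777 to 0.0629). For KO they were *Hcst* at the upper quartile (0.0225) and with a library left out (-0.274 to 0.119), *Cd247* at the upper quartile (0.0952) and with a library left out (-0.0813 to 0.0700), *Cd3e* at the upper quartile (0.0294), *Cd3d* on the TPM scale (-0.0595), in the Ballgown-style model (-0.114) and with a library left out (-0.0772 to 0.183), and *Syk* with a library left out (-0.166 to 0.0117). On the TPM scale genes of mean FPKM 1 or more had a median log2 change of -0.14 between WT stages and -0.16 for KO, against -0.05 for either as deposited. Over all genes, the count by adjusted p ran from 5 (Ballgown-style) to 626 (all 9 libraries) between WT stages and from 0 to 176 for KO. Counts of list genes under these settings were added after seeing the data. Unknown depth limits what can be said of *Syk*, *Tyrobp* and stage 2 *Fcer1g*, whose values lie near 0.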
